A study of Homo sapiens with 21 samples.

Results

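AU565 is an established human breast cancer line with an amplified ERBB2 gene, which encodes the growth factor receptor HER2, and trastuzumab is a therapeutic antibody against that receptor. Aggregates grown from AU565 cells that had met trastuzumab as a flat monolayer (primed aggregates) were compared with aggregates grown from cells that had not met it (untreated aggregates). The 3 libraries of each group were chosen by their sample labels and make up 6 of the 21 RNA libraries of the series. Primed cells received 20 µg/ml trastuzumab for 24 h as a monolayer and were then kept for 96 h in liquid overlay, a culture over a surface that cells cannot attach to, with 5% matrigel. Untreated aggregates had the same 96 h of overlay culture with matrigel and no antibody. All cells were wild-type AU565, a single line, in serum-containing RPMI. Another 5 groups of 3 libraries stand beside them at some points. Of these, 3 were monolayers, without antibody, with an acute exposure of 24 h to 20 µg/ml, or with that exposure and 96 h more as monolayers (primed monolayers). The other pair were aggregates that, once 96 h of overlay culture had passed, received 50 µg/ml for a further 24 h, with or without priming before. The labels do not say whether the antibody was taken away before aggregation, whether the control cells had an equal time as monolayers, or whether replicates came from separate cultures. The p-values therefore measure the spread between libraries within groups, estimated over all 21 libraries of the 7 groups, which may be technical.

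HER2 pairs with other receptors of its family, above all with HER3, and signals through PI3K and AKT and through RAS and ERK. Active AKT keeps the FOXO transcription factors out of the nucleus, so genes that FOXO turns on, among them those of the insulin receptor and of HER3 itself, are held low while the pathway runs. Cells in the interior of aggregates receive less oxygen than cells in a flat layer. When oxygen is short, the EGLN prolyl hydroxylases no longer mark HIF proteins for destruction, and HIF raises genes of glucose uptake, glycolysis and vessel growth.

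The 6 libraries held 16939524 to 21391492 counts in genes, and levels are given as CPM, counts scaled to library size with TMM factors. Of 16553 genes in the table, 15969 passed a filter on low counts and were tested. Among the 10 markers of luminal breast epithelium, the cell type of the line, EPCAM lay between 196 and 242.5 CPM and KRT18 between 902 and 975. The luminal factor FOXA1 lay between 229.5 and 246.7 CPM. The adhesion protein CDH1 was at 0.654 to 3.05 CPM, the luminal factor GATA3 at 3.58 to 4.70 and TFAP2B at 0.414 to 1.12. These defining markers were thus close to absent. Of the 10, ERBB2 was higher in primed aggregates by the test described below, and KRT8, KRT19 and MUC1 were lower. Transcripts typical of other tissues were also present and differed between the groups. Of 7 tested melanocyte markers 4 were higher in primed aggregates by the test described below and 0 lower, and the 8 in the table summed to 17.1 to 24.1 CPM in untreated and 56.6 to 97.5 in primed aggregates. TYR and DCT, which also define melanocytes, did not exceed 1.24 CPM. Mesenchymal markers summed to 96.9 to 127 CPM in untreated and 138 to 205 in primed aggregates (2 of 11 higher, VIM and SPARC, though VIM did not pass when only these groups were fitted, with an edgeR adjusted p = 0.0855). Striated muscle markers summed to 211 to 254 CPM against 154 to 159, with 1 of 11 lower (MB). Most of that sum was the myoglobin gene MB, at 164, 163 and 195 CPM against 131, 138 and 135. The cardiac myosin MYH7 was at 29.9 and 20.6 CPM in the first and second libraries of untreated aggregates, at 0 in the third, and at no more than 0.0592 in primed aggregates. Of 7 brain markers 2 were higher (SYT1 and MBP, with sums of 12.6 to 17.3 and 16.2 to 20.95 CPM), of 2 immune markers CD68 was higher (52.0 to 56.2 and 60.0 to 75.4), and of 4 endothelial markers CDH5 was lower (14.9 to 18.3 and 15.1 to 17.7). SYT1 lost its call without the first or the second untreated or the second or the third primed library (edgeR adjusted p between 0.0799 and 0.264), CD68 without the third primed one (edgeR adjusted p = 0.0771), and SYT1, CD68 and CDH5 without the libraries that carried MYH7 (edgeR adjusted p = 0.989, 0.206 and 0.0628). Kidney markers summed to 2.74 to 3.32 and 2.31 to 2.96 CPM, with 0 called. The part of these transcripts in the results was not tested; values without the libraries that carried MYH7 are given beside results that they changed, and they leave 1 untreated library against 3 primed ones.

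**Figure D1:**
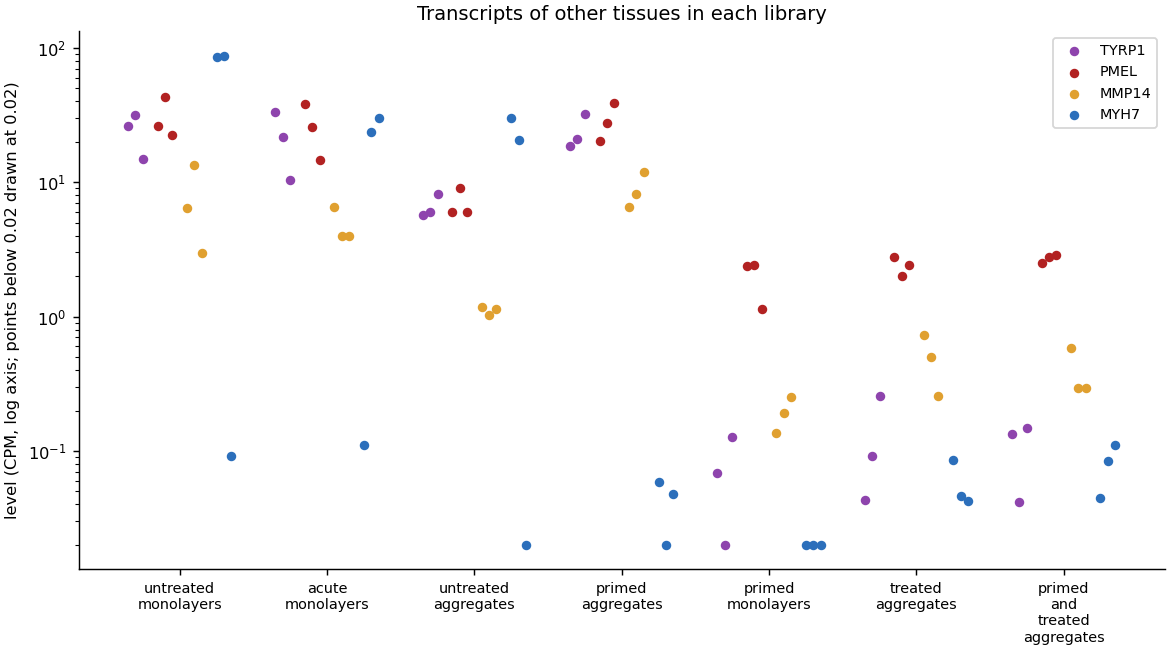
Levels of 4 transcripts typical of melanocytes (TYRP1, PMEL), of mesenchymal cells (MMP14) and of heart muscle (MYH7) in each of the 21 libraries, in CPM on a log axis, 1 point per library. TYRP1, PMEL and MMP14 are higher in all 3 primed than in all 3 untreated aggregates, and MYH7 is above 1 CPM in 6 libraries, 2 of them untreated aggregates.

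In primed aggregates 3379 of 15969 genes differed from untreated aggregates by edgeR's quasi-likelihood test at a Benjamini-Hochberg adjusted p under 0.05 (21.2%). Of these, 1836 were higher (11.5%) and 1543 lower (9.66%). Most changes were small. The median size among the called genes was 0.32 on the log2 scale, 782 genes passed with more than 0.5 (4.9%), and 264 passed with more than 1 (1.65%), 176 higher and 88 lower. The 3 libraries of 1 group all lay above the 3 of the other for 4885 genes (30.6%). Fitted on the libraries of these groups alone, 2177 of 14519 genes were called, 1210 higher and 967 lower. The counts given next are from the fit of all libraries. Large rises were found among genes of low level. Of the 176 rises over 1, 78 were in genes averaging under 1 CPM over both groups, 90 between 1 and 10, 7 between 10 and 100, and 1 at 100 CPM or more, which was TXNIP. Of the 88 falls over 1, 34 were under 1 CPM, 42 between 1 and 10, 11 between 10 and 100, and 1 at 100 or more, the antisense RNA DSCAM-AS1, whose reads cannot be told from those of its partner gene since the counting is not stated to use strand. Without the 6 libraries that carried MYH7, 2176 genes were called, 1069 higher and 1107 lower. Values in parentheses behind gene names are log2 fold changes of primed over untreated aggregates unless said otherwise, and "rose" and "fell" are used of genes that passed the test.

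**Figure D2:**
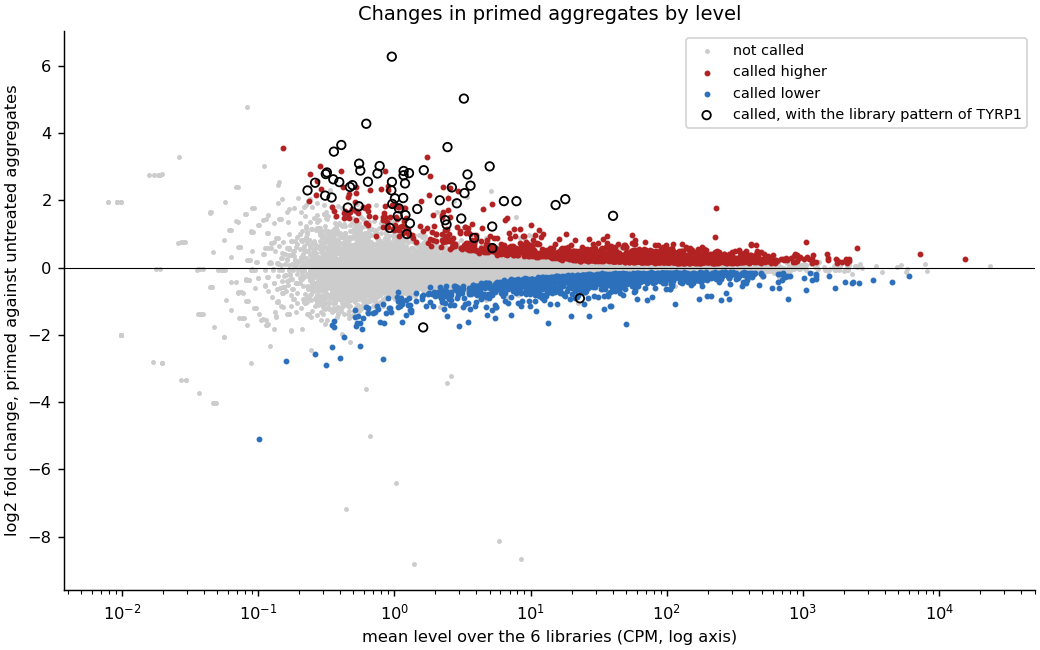
Fitted log2 fold change of each of the 15969 genes, primed against untreated aggregates, by its mean level over the 6 libraries in CPM on a log axis, with called genes in red (1836 higher) and blue (1543 lower). Black rings mark called genes that share the library pattern of TYRP1 outside this comparison, of which 58 are rises and 2 are falls.

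Many hypoxia genes were lower in primed aggregates. In RNA from whole aggregates, fewer cells of a kind and less RNA per cell cannot be told apart. Of 26 targets and regulators of HIF, 17 fell (65.4%, against 9.66% of all genes), 3 rose and 6 did not pass, with a median of −0.34 against a median of −0.0002 over all genes. Adrenomedullin, ADM, a vasodilating peptide made by oxygen-starved cells, fell most. Its level was 69.3, 82.7 and 76.9 CPM in the 3 untreated libraries and 17.5, 31.0 and 23.6 in the 3 primed ones (log2 −1.66, SE 0.12, edgeR adjusted p = 2.08e-09). The highest primed library thus lay far below the lowest untreated one. EGLN3, the hydroxylase that HIF itself induces as a brake, was at 215, 219.9 and 246 CPM in untreated and 124, 119 and 115 in primed aggregates (log2 −0.93, SE 0.065, edgeR adjusted p = 5.69e-12). Its relative EGLN1, the main oxygen sensor, was at 128, 127 and 134 CPM against 91.5, 84.7 and 88.6 (log2 −0.55, SE 0.053, edgeR adjusted p = 1.71e-09). For both hydroxylases the groups were well apart and the spread within them was small. DDIT4, an inhibitor of mTOR that is induced by low oxygen and other stress, was at 1032, 989 and 1005 CPM against 472, 571 and 553 (log2 −0.92, SE 0.097, edgeR adjusted p = 2.11e-06). NDRG1, a stress-induced protein that marks hypoxic tissue, was at 2564, 2664 and 2762 CPM against 1933, 2029 and 1835 (log2 −0.46, SE 0.06, edgeR adjusted p = 6.3e-07). The angiogenic factor VEGFA was at 398, 396 and 311 CPM against 278, 307 and 303 (log2 −0.32, SE 0.065, edgeR adjusted p = 0.000588), and here the lowest untreated library lay just above the highest primed one. When the libraries that carried MYH7 were left out it was lost for VEGFA (−0.073, edgeR adjusted p = 0.53).

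The other members that fell followed the same direction at smaller or similar size. They were the liprin PPFIA4 (−0.88, SE 0.11), the regulatory kinases PFKFB4 (−0.81, SE 0.11) and PFKFB3 (−0.31, SE 0.061), the lipid droplet protein HILPDA (−0.61, SE 0.097), ANKRD37 (−0.98, SE 0.19), the collagen-modifying enzymes PLOD2 (−0.37, SE 0.082), P4HA2 (−0.34, SE 0.074) and P4HA1 (−0.20, SE 0.053), the mitophagy receptors BNIP3 (−0.34, SE 0.055) and BNIP3L (−0.21, SE 0.065), and the histone demethylase KDM3A (−0.19, SE 0.066). The carbonic anhydrase CA9, often used as a hypoxia marker, was at 9.87, 13.1 and 11.2 CPM against 8.82, 9.37 and 4.77 and did not pass (−0.59, edgeR adjusted p = 0.101). The 3 members that rose were the HIF subunits HIF1A (0.23, SE 0.052) and EPAS1 (0.26, SE 0.049), which are controlled mainly as proteins, and the collagen cross-linking enzyme LOX (0.70, SE 0.24). In all, 13 of the 26 fell and 0 rose without the libraries that carried MYH7. With a single library left out the call was lost for BNIP3L (without the third untreated or the second or the third primed, edgeR adjusted p between 0.0538 and 0.104), KDM3A (without the second or the third untreated or the first primed, edgeR adjusted p between 0.102 and 0.252) and LOX (without the first or the third untreated or the first or the second primed, edgeR adjusted p between 0.0606 and 0.168). Leaving out the libraries that carried MYH7 ended the call of P4HA2 (−0.28, edgeR adjusted p = 0.0726), P4HA1 (−0.21, edgeR adjusted p = 0.0622), KDM3A (−0.23, edgeR adjusted p = 0.0983), HIF1A (0.14, edgeR adjusted p = 0.196), EPAS1 (0.20, edgeR adjusted p = 0.0737) and LOX (0.96, edgeR adjusted p = 0.0634).

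The starts of these genes were searched for the core letters that HIF binds, ACGTG or GCGTG on either strand, in the 250 bases before the transcript start. The window held a match for 19 of 22 hypoxia genes with a sequence (86.4%), and for 11 of the 13 such genes that fell (84.6%). Over all tested genes with a sequence the share was 56.1%, and among glycolysis genes it was 10 of 20 (50%). A match is a string of letters and not a measured binding site. Shown here are the 4 genes with the smallest p among the hypoxia and glycolysis genes for which a sequence could be printed, 5′ to 3′ on the gene's own strand, from RefSeq on GRCh38.p14, with matches in capitals. EGLN3 lies at chr14:33951075-33951324 on the minus strand, PDK1 at chr2:172555123-172555372 on the plus strand, PGK1 at chrX:78103998-78104247 on the plus strand, and EGLN1 at chr1:231422288-231422537 on the minus strand. PGK1 holds 3 matches and EGLN1 holds 1, and EGLN3 and PDK1 hold 0 in this window.
EGLN3: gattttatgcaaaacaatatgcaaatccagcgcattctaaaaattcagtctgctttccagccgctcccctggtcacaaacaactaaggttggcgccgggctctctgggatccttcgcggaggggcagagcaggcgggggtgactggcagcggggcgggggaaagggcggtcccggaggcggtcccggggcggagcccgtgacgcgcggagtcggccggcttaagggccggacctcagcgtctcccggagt
PDK1: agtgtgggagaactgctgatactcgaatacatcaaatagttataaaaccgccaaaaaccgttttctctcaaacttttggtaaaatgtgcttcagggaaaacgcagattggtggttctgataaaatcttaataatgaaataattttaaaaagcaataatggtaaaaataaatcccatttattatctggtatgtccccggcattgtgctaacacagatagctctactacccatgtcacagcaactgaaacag
PGK1: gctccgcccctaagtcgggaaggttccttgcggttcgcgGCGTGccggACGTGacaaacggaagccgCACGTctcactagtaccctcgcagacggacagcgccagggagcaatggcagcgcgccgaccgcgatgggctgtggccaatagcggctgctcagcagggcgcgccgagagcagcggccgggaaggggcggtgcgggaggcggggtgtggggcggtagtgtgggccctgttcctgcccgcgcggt
EGLN1: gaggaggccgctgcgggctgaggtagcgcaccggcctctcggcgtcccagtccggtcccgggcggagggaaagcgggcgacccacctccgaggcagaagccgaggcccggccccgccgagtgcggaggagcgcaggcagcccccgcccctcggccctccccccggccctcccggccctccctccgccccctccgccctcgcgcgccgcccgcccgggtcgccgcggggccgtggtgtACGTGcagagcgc

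Enzymes of glycolysis fell as a near-complete series. Of 22 genes from glucose uptake to lactate export, 16 fell (72.7% against 9.66% of all genes), 1 rose and 5 did not pass. Their median was −0.35. At the entry, the glucose transporter SLC2A1 was at 347, 349 and 381 CPM in untreated and 246, 326 and 275 in primed aggregates (log2 −0.35, SE 0.072, edgeR adjusted p = 0.000832), and the hypoxia-responsive hexokinase HK2 was at 729, 811 and 813 against 557, 691 and 587 (log2 −0.36, SE 0.058, edgeR adjusted p = 2.19e-05). For both, the second primed library was the highest of its group and still below all untreated ones. The other hexokinase, HK1, which most cells express steadily, was the member that rose (0.15, SE 0.046). In the middle of the pathway the isomerase GPI (−0.41, SE 0.052), the platelet-type phosphofructokinase PFKP (−0.34, SE 0.058), the aldolases ALDOA (−0.41, SE 0.059) and ALDOC (−0.44, SE 0.052) and the triosephosphate isomerase TPI1 (−0.46, SE 0.057) fell. PGK1, the first enzyme of the pathway to yield ATP, was at 1826, 2051 and 2280 CPM against 1422, 1349 and 1289 (log2 −0.60, SE 0.055, edgeR adjusted p = 1.01e-09). All 3 primed libraries lay below the lowest untreated one. Reads of PGK1, GAPDH and LDHA can be shared with near-identical processed copies. Below it PGAM1 (−0.37, SE 0.057), ENO1 (−0.43, SE 0.055) and PKM (−0.35, SE 0.057) fell, as did GAPDH (−0.24, SE 0.053), a gene often used as a reference. Lactate dehydrogenase LDHA was at 2045, 2324 and 2668 CPM against 1916, 1662 and 1604 (log2 −0.44, SE 0.067, edgeR adjusted p = 1.59e-05). PDK1, a kinase that keeps pyruvate out of mitochondria and is a HIF target, was at 59.1, 59.7 and 64.3 CPM against 32.8, 38.9 and 33.5 (log2 −0.80, SE 0.072, edgeR adjusted p = 5.13e-10), so that its primed libraries did not reach 40 CPM and its untreated ones did not fall under 59. The neuronal glucose transporter SLC2A3 (−0.90, SE 0.23) and the lactate exporter SLC16A3 (−0.20, SE 0.06) fell too. In number 15 of 22 genes fell without the libraries that carried MYH7, and 15 to 17 fell when any 1 of the 6 libraries was left out. Leaving out 1 library ended the call of HK1 (without the first or the second untreated or the second primed, edgeR adjusted p between 0.072 and 0.118) and SLC16A3 (without the first untreated or the third primed, edgeR adjusted p between 0.0932 and 0.0961). The libraries that carried MYH7, left out together, ended the call of HK1 (0.087, edgeR adjusted p = 0.435), SLC2A3 (−0.61, edgeR adjusted p = 0.22) and SLC16A3 (−0.16, edgeR adjusted p = 0.164).

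**Figure D3:**
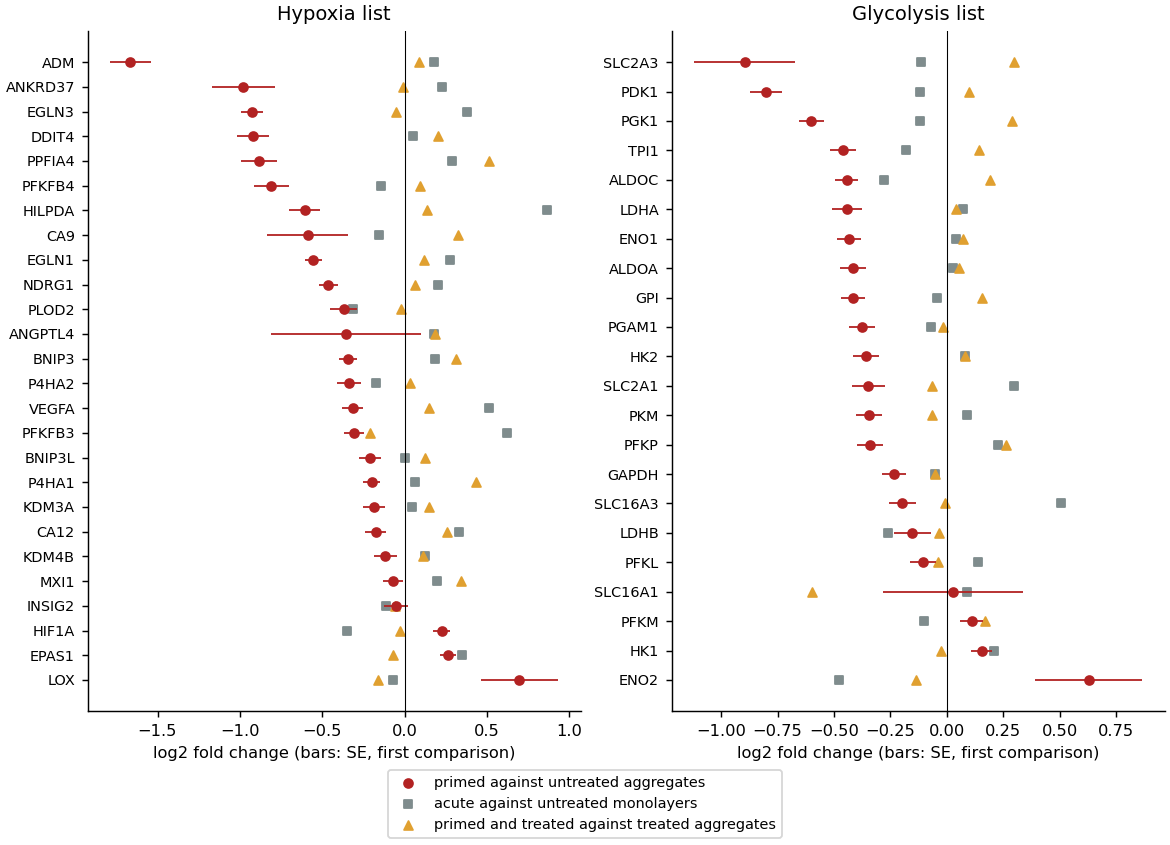
Log2 fold change of each tested member of the hypoxia list (left) and the glycolysis list (right) in primed against untreated aggregates (red circles, bars are 1 SE), in acute against untreated monolayers (grey squares) and in primed and treated against treated aggregates (orange triangles). The red circles lie to the left of 0 for 23 of 26 hypoxia and 18 of 22 glycolysis genes, while 7 squares and 8 triangles of the hypoxia list, and 11 and 10 of the glycolysis list, do.

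Respiratory chain and antioxidant genes were also lower, by less. Of 31 nuclear-encoded subunits of oxidative phosphorylation 18 fell (58.1% against 9.66% of all genes) and 0 rose, with a median of −0.24. The ATP synthase subunit ATP5MC1 was at 34.7, 33.2 and 34.5 CPM against 25.0, 27.1 and 25.7 (log2 −0.39, SE 0.069, edgeR adjusted p = 6.76e-05), and cytochrome c, CYCS, at 294, 298 and 354 against 258, 258 and 249 (log2 −0.31, SE 0.055, edgeR adjusted p = 0.000101). NDUFB8 of complex I (−0.34, SE 0.067) and COX4I1 of complex IV (−0.27, SE 0.056) fell as well. In contrast COX1, which is encoded in mitochondrial DNA, had the largest rise in CPM of any gene, with 14150, 14450 and 13480 CPM in untreated and 17160, 16920 and 16440 in primed aggregates (log2 0.26, SE 0.052, edgeR adjusted p = 0.00031). Of 22 genes of the NRF2 response and the pentose phosphate pathway 9 fell (40.9% against 9.66% of all genes) and 1 rose (4.55% against 11.5%). Those with the smallest p were the NADPH-producing enzyme PGD (−0.35, SE 0.047), the sulfiredoxin SRXN1 (−0.39, SE 0.065), the quinone reductase NQO1 (−0.31, SE 0.052) and GCLM, a subunit of the enzyme that begins glutathione synthesis (−0.36, SE 0.064). The cystine importer SLC7A11, which NRF2 and ATF4 both induce, was the 1 that rose (0.43, SE 0.089). Of 26 genes of MYC and ribosome biogenesis 8 fell and 1 rose (0 rose without the libraries that carried MYH7 and 2 without the second primed library). For this list the shares were 30.8% lower and 3.85% higher, against 9.66% and 11.5% of all genes. The polyamine enzyme ODC1 was at 248, 260.4 and 299 CPM against 151, 139.7 and 159 (log2 −0.85, SE 0.076, edgeR adjusted p = 9.21e-09), and MYC itself fell by less (−0.25, SE 0.054). Of 38 cytosolic ribosomal proteins 1 fell (RPS12, −0.20, SE 0.068) and 0 rose, but 7 fell without the libraries that carried MYH7 and 2 without the second untreated library. The 1 fall with all libraries was 2.63% of the ribosomal proteins, against 9.66% of all genes. Calls that ended without 1 library were those of RPS12 (without the first or the third untreated or the second or the third primed, edgeR adjusted p between 0.0664 and 0.177).

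Several genes of HER2 and its partners were higher in primed aggregates. Of 22 genes of the HER family, its ligands, adaptors and feedback inhibitors, 8 rose and 0 fell (36.4% against 11.5% of all genes), and 2 fell without the first untreated library. ERBB2, the target of the antibody, was at 6620, 6180 and 5767 CPM in untreated and 8177, 8590 and 8054 in primed aggregates (log2 0.42, SE 0.053, edgeR adjusted p = 4.67e-07). It lies on chromosome 17 from 39688094 to 39728658 (GRCh38.p14). ERBB3, the preferred partner of HER2, was at 352, 345 and 347 CPM against 537, 580.3 and 536 (log2 0.66, SE 0.051, edgeR adjusted p = 1.56e-11). The adaptor GRB7, which binds activated HER2 and sits beside it in the amplified segment, was at 831, 783 and 719 CPM against 1223, 1369 and 1328 (log2 0.75, SE 0.054, edgeR adjusted p = 5.69e-12). In all of these every primed library lay above every untreated one. EGFR was at 305, 321 and 315 CPM against 289, 361 and 316 and did not pass (0.04, edgeR adjusted p = 0.705). Negative regulators rose alongside, namely LRIG1, which lowers HER receptor protein (0.37, SE 0.059), and the ubiquitin ligase CBL (0.34, SE 0.056). The docking protein GAB1 (0.41, SE 0.071), the adaptor SHC1 (0.20, SE 0.055) and the ligand EGF (0.19, SE 0.055) rose too. The ligands other than EGF were at no more than 8.64 CPM for HBEGF, and at no more than 2.50 for the EGFR ligands BTC and AREG and the neuregulin NRG1, and did not pass. The call ended with 1 library left out for SHC1 (without the second primed, edgeR adjusted p = 0.0963) and EGF (without the third untreated or the first primed, edgeR adjusted p between 0.0583 and 0.0781). When the libraries that carried MYH7 were left out it was lost for SHC1 (0.20, edgeR adjusted p = 0.0886) and EGF (0.22, edgeR adjusted p = 0.073).

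Some of the genes next to ERBB2 also rose. Of 14 amplicon genes tested, ERBB2 among them, 4 rose (28.6% against 11.5% of all genes), 1 fell and 9 did not pass, with a median of 0.03. Besides ERBB2 and GRB7, these were FBXL20 (0.22, SE 0.048) and the transcriptional kinase CDK12 (0.14, SE 0.051). MIEN1, the gene between ERBB2 and GRB7, was at 455, 438 and 463 CPM against 392, 378 and 375 (log2 −0.24, SE 0.05, edgeR adjusted p = 0.000457). Its annotated span (39728510 to 39730532) overlaps the last bases of ERBB2, and the counting is not stated to use strand. With a single library left out the call was lost for CDK12 (without the first or the second untreated or the first or the second primed, edgeR adjusted p between 0.0899 and 0.232). Leaving out the libraries that carried MYH7 ended the call of CDK12 (0.043, edgeR adjusted p = 0.762).

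**Figure D4:**
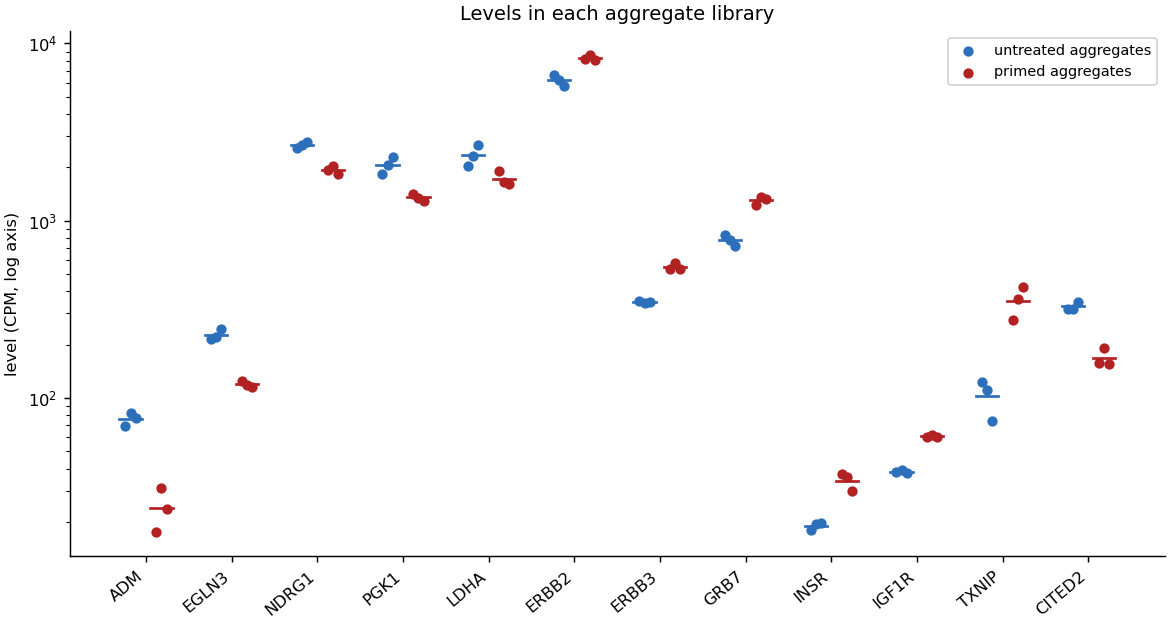
Levels in CPM on a log axis of 12 genes in the 3 untreated (blue) and 3 primed (red) aggregate libraries, with a line at each group mean. The groups do not overlap for any of the 12: the first 5 are lower and the 6 from ERBB2 to TXNIP, GRB7 among them, are higher in primed aggregates, and CITED2 is lower. All 12 are called genes picked for display, and the groups do not overlap for 30.6% of all genes tested.

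Of the 42 gene lists, that of genes held down by PI3K signalling had the greatest share of rises. Of 24 such genes, many of them FOXO targets, 14 rose (58.3% against 11.5% of all genes), 2 fell and 8 did not pass. Their median was 0.36. The insulin receptor INSR was at 18.1, 19.4 and 19.7 CPM in untreated and 37.0, 35.8 and 29.9 in primed aggregates (log2 0.84, SE 0.084, edgeR adjusted p = 5.59e-09). IGF1R, the receptor of insulin-like growth factor, was at 38.3, 39.2 and 37.6 CPM against 60.4, 62.0 and 60.0 (log2 0.66, SE 0.058, edgeR adjusted p = 3.59e-10), with almost no spread inside either group. PIK3IP1, an inhibitor of PI3K, was at 25.4, 22.9 and 22.5 CPM against 34.7, 37.8 and 44.1 (log2 0.72, SE 0.098, edgeR adjusted p = 1.79e-06). TXNIP, which limits glucose uptake, was at 123, 112 and 74.3 CPM against 277, 359.6 and 425 (log2 1.78, SE 0.20, edgeR adjusted p = 1.56e-05). It was the only gene averaging 100 CPM or more that rose by over 1, and its values also spread widely within each group. Further rises were those of FOXO3 (0.37, SE 0.062) and FOXO4 (0.42, SE 0.11), the ubiquitin ligase adaptor KLHL24 (0.49, SE 0.055), YPEL2 (0.54, SE 0.077), the translation inhibitor PDCD4 (0.46, SE 0.056), TP53INP1 (0.89, SE 0.15), the transcription factor KLF9 (0.35, SE 0.054), the mTORC2 subunit RICTOR (0.42, SE 0.063), the cyclin CCNG2 (0.23, SE 0.067) and the CDK inhibitor CDKN1B (0.22, SE 0.058). The 2 that fell were SESN3 (−0.34, SE 0.12) and CITED2. CITED2, a coactivator partner that HIF also induces and that competes with HIF for its coactivator, was at 319.6, 317 and 349 CPM against 158, 192 and 156 (log2 −0.97, SE 0.066, edgeR adjusted p = 5.69e-12). Rises numbered 12 of 24 without the libraries that carried MYH7. Leaving out 1 library ended the call of CCNG2 (without the first untreated or the third primed, edgeR adjusted p between 0.067 and 0.144) and SESN3 (without the second or the third untreated or the second or the third primed, edgeR adjusted p between 0.0594 and 0.182). The libraries that carried MYH7, left out together, ended the call of FOXO4 (0.46, edgeR adjusted p = 0.0834), CCNG2 (0.14, edgeR adjusted p = 0.344) and CDKN1B (0.14, edgeR adjusted p = 0.281).

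Both proapoptotic and prosurvival genes were among those that rose in the BCL2 family. Of 15 genes tested 5 rose (33.3% against 11.5% of all genes) and 3 fell (20% against 9.66%), with 1 fall without the third untreated or the second primed library. BMF, a BH3-only protein that FOXO can induce, was at 13.6, 12 and 11 CPM against 24.7, 24.4 and 24.3 (log2 1.0, SE 0.096, edgeR adjusted p = 1.53e-09), and BIM, encoded by BCL2L11, also rose (0.40, SE 0.062). The prosurvival MCL1 (0.26, SE 0.052) and BCL2L1 (0.26, SE 0.065) rose, and so did BCL2 (1.75, SE 0.57), at no more than 1.01 CPM in any of the 6 libraries. The members that fell were BID (−0.35, SE 0.10) and the hypoxia genes BNIP3 and BNIP3L. Calls that ended without 1 library were those of BCL2L1 (without the second primed, edgeR adjusted p = 0.0933), BCL2 (without the first or the third untreated or the first or the third primed, edgeR adjusted p between 0.0832 and 0.122) and BID (without the third untreated or the second primed, edgeR adjusted p between 0.0991 and 0.145). With the libraries that carried MYH7 left out, the call ended for BCL2L1 (0.21, edgeR adjusted p = 0.149).

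Genes induced by ERK were called in both directions. Of 19 ERK feedback genes 4 rose (21.1% against 11.5% of all genes) and 2 fell (10.5%, near the 9.66% of all genes). Falls numbered 4 without the first untreated or the first primed library, and 1 without the libraries that carried MYH7. The feedback inhibitors SPRY4, at 40.8, 42.4 and 42.8 CPM against 67.9, 75.9 and 65.6 (log2 0.73, SE 0.065, edgeR adjusted p = 4.88e-10), and SPRED2 (0.45, SE 0.06) rose, as did the ERK phosphatase DUSP6 (0.84, SE 0.18) and the transcription factor ETV4 (0.41, SE 0.074). The phosphatases DUSP5 (−0.56, SE 0.12) and DUSP7 (−0.57, SE 0.14) fell. Of 19 immediate early genes 5 rose (26.3% against 11.5% of all genes) and 3 fell (15.8% against 9.66%). FOS, a subunit of the AP-1 factor, was at 52.0, 49.9 and 41.3 CPM against 24.3, 28.8 and 27.3 (log2 −0.83, SE 0.1, edgeR adjusted p = 1.88e-07), so that every primed library lay below every untreated one, and the stress factor ATF3 (−0.38, SE 0.089) and MYC fell by less. KLF4, a factor of epithelial differentiation, rose (0.47, SE 0.067). The number of immediate early rises was 2 without the third untreated or the second primed library and 3 without the third primed one. When the libraries that carried MYH7 were left out it was lost for DUSP5 (−0.48, edgeR adjusted p = 0.0861).

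Cell cycle genes divided by phase. Of 32 G1/S genes 11 fell and 0 rose (34.4% against 9.66%), and of 30 G2/M genes 7 rose and 0 fell (23.3% against 11.5%). A short list of 12 genes often used as references had a share of falls like that of G1/S, with 4 lower (33.3%) and 1 higher (8.33%). The replication licensing factor CDC6 was at 89.4, 95.5 and 115 CPM in untreated and 60.1, 68.2 and 66.9 in primed aggregates (log2 −0.62, SE 0.072, edgeR adjusted p = 1.97e-07). E2F1, which drives entry into S phase, was at 9.81, 9.34 and 9.69 CPM against 5.56, 5.07 and 7.01 (log2 −0.70, SE 0.12, edgeR adjusted p = 3.24e-05), and the helicase subunit MCM3 (−0.40, SE 0.071) and the flap nuclease FEN1 (−0.41, SE 0.074) fell too. The kinetochore protein CENPF was at 31.4, 41.8 and 39.2 CPM against 50.2, 67.6 and 55.1 (log2 0.62, SE 0.11, edgeR adjusted p = 0.000419), and KIF20A (0.51, SE 0.11), HMMR (0.57, SE 0.14) and CENPE (0.44, SE 0.14), which act in spindle and midzone, rose. The proliferation marker MKI67 was at 29.0, 35.5 and 32.7 CPM against 32.4, 45.8 and 39.4 and did not pass (0.27, edgeR adjusted p = 0.0821). The G2/M rises rested on few libraries: 4 remained in number without the first untreated or the second primed library, 3 without the third primed library and 2 without the libraries that carried MYH7. G1/S falls numbered 9 to 13 when any 1 of the 6 libraries was left out. RBL2, a pocket protein that keeps resting cells out of the cycle and a FOXO target, was at 107, 105 and 103 CPM against 146, 147 and 152 (log2 0.50, SE 0.049, edgeR adjusted p = 3.51e-09). The G1 cyclin CCND3 rose (0.48, SE 0.075), and CCND1 was at 278, 280.4 and 299.6 CPM against 292, 297 and 278 and did not pass (0.014, edgeR adjusted p = 0.87). With a single library left out the call was lost for CENPE (without the first or the third untreated or the second or the third primed, edgeR adjusted p between 0.0757 and 0.129). Leaving out the libraries that carried MYH7 ended the call of KIF20A (0.43, edgeR adjusted p = 0.0898), HMMR (0.50, edgeR adjusted p = 0.131) and CENPE (0.50, edgeR adjusted p = 0.093).

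Receptors for matrix and proteins of cell junctions rose in part. Of 31 integrin and matrix genes 13 rose (41.9% against 11.5% of all genes) and 0 fell, and 8 rose without the third primed library. The integrin subunit ITGB4, which anchors epithelial cells to laminin, was at 28.8, 28.7 and 28.1 CPM against 36.3, 48.6 and 45.3 (log2 0.61, SE 0.088, edgeR adjusted p = 6.72e-06). ITGB5 (0.46, SE 0.054) and the laminin chains LAMB2 (0.46, SE 0.056) and LAMB1 (0.26, SE 0.047) rose as well. Of 27 epithelial junction genes 12 rose and 2 fell, with 4 rises left without the libraries that carried MYH7. With all libraries the junction shares were 44.4% higher and 7.41% lower, against 11.5% and 9.66% of all genes. CTNND1, the p120 catenin, was at 35.5, 38.6 and 38.6 CPM against 51.2, 64.9 and 55.6 (log2 0.61, SE 0.077, edgeR adjusted p = 5.5e-07). The desmosomal cadherins DSG2 (0.31, SE 0.056) and DSC2 (0.32, SE 0.058) rose, and the plakophilins PKP2 (−0.21, SE 0.059) and PKP3 (−0.34, SE 0.088) fell. CDH1 was at 1.18, 1.23 and 0.654 CPM against 0.888, 2.04 and 3.05 and did not pass (0.98, edgeR adjusted p = 0.0935), but passed without the first primed library (1.31, edgeR adjusted p = 0.0143). Leaving out 1 library ended the call of PKP2 (without the third primed, edgeR adjusted p = 0.0564) and PKP3 (without the first untreated or the second primed, edgeR adjusted p between 0.0512 and 0.0514). The libraries that carried MYH7, left out together, ended the call of DSG2 (0.24, edgeR adjusted p = 0.0525), DSC2 (0.21, edgeR adjusted p = 0.0823) and PKP3 (−0.15, edgeR adjusted p = 0.308).

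Abundant keratins of simple epithelium were lower or did not pass. KRT19 was at 2855, 2923 and 3178 CPM against 1962, 2353 and 2141 (log2 −0.47, SE 0.064, edgeR adjusted p = 1.68e-06), KRT8 fell by less (−0.26, SE 0.057), and KRT18 did not pass (0.023, edgeR adjusted p = 0.821). The hair keratin KRT81, whose reads can be shared with near-identical keratins, fell (−0.36, SE 0.11), and KRT23 rose at low level (0.58, SE 0.16). Falls made up 11.8% of the basal and cornified genes, near the 9.66% of all genes. Of 17 basal and cornified genes KRT15 (−0.80, SE 0.12) and KRT17 (−1.62, SE 0.37) fell (KRT15 alone by the test without the libraries that carried MYH7) and 0 rose. Among secretory products of mammary epithelium, AZGP1 (0.36, SE 0.06), PIP (0.72, SE 0.15), SCGB2A2 (0.38, SE 0.095) and MUCL1 (0.28, SE 0.096) rose and SLPI (−0.40, SE 0.083) and MUC1 (−0.21, SE 0.065) fell; 0 rose and 4 fell of 20 tested without the libraries that carried MYH7, 2 rose without the first untreated library, and 4 fell without the first primed one. With all libraries the secretory rises were 21.1% of 19 tested and the falls 10.5%, against 11.5% and 9.66% of all genes. The epithelial factors EHF (0.60, SE 0.056) and ZNF217 (0.38, SE 0.05) rose. In the Notch pathway the receptors NOTCH2 (0.53, SE 0.05) and NOTCH3 (0.38, SE 0.066) and the ligand DLL4 (1.21, SE 0.22) rose, and the ligand JAG1 (−0.81, SE 0.11) and the Notch targets HES1 (−0.41, SE 0.07) and HEY1 (−0.28, SE 0.10) fell. Calls that ended without 1 library were those of KRT81 (without the first or the second or the third untreated or the first primed, edgeR adjusted p between 0.059 and 0.115), KRT23 (without the third primed, edgeR adjusted p = 0.114), SCGB2A2 (without the first untreated, edgeR adjusted p = 0.0503), MUCL1 (without the first or the second untreated or the first primed, edgeR adjusted p between 0.13 and 0.242), MUC1 (without the first untreated or the first primed, edgeR adjusted p between 0.0506 and 0.132) and HEY1 (without the first or the second or the third untreated or the first or the third primed, edgeR adjusted p between 0.0508 and 0.243). With the libraries that carried MYH7 left out, the call ended for KRT81 (−0.42, edgeR adjusted p = 0.207), KRT23 (0.70, edgeR adjusted p = 0.0653), KRT17 (−1.36, edgeR adjusted p = 0.0514), AZGP1 (0.24, edgeR adjusted p = 0.067), PIP (0.54, edgeR adjusted p = 0.0891), SCGB2A2 (0.14, edgeR adjusted p = 0.509), MUCL1 (0.17, edgeR adjusted p = 0.5), MUC1 (−0.078, edgeR adjusted p = 0.619) and HEY1 (−0.28, edgeR adjusted p = 0.257).

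Part of the type I interferon response was higher. Of 26 genes tested 11 rose and 2 fell (42.3% rose), and 7 rose without the libraries that carried MYH7, without the second untreated library or without the second primed library. The 2 falls were 7.69% of the list, and over all genes 11.5% rose and 9.66% fell. OAS1, an enzyme that senses double-stranded RNA, was at 33.7, 32.9 and 33.0 CPM against 61.0, 51.4 and 50.2 (log2 0.70, SE 0.069, edgeR adjusted p = 3.03e-09). STAT2 (0.33, SE 0.055) and IRF9 (0.43, SE 0.086), which form the factor that transmits the interferon signal, rose by less, and USP18, which dampens it, fell (−0.42, SE 0.076). Other rises were at low level, such as MX1, at 3.29, 4.08 and 4.58 CPM against 7.58, 7.33 and 7.01 (log2 0.87, SE 0.18, edgeR adjusted p = 0.000664), and IFIT1, at 0.940, 1.38 and 1.19 against 2.96, 3.91 and 4.58 (log2 1.70, SE 0.36, edgeR adjusted p = 0.000824). IFI6 was the other member that fell (−0.32, SE 0.077). Of 16 checkpoint and killer cell ligands 5 rose and 0 fell, and 3 rose without the libraries that carried MYH7. The 5 rises were 31.2% of these ligands, against 11.5% of all genes. The death ligand TNFSF10, known as TRAIL, was at 6.35, 6.38 and 9.10 CPM against 21.2, 12.5 and 13.7 (log2 1.12, SE 0.20, edgeR adjusted p = 0.000381), and NECTIN4 (0.43, SE 0.054), the complement regulators CD55 (0.41, SE 0.054) and CD46 (0.22, SE 0.05) and the NKG2D ligand ULBP1 (0.39, SE 0.11) rose too. CD274, which encodes PD-L1, was at 1.94, 2.55 and 1.78 CPM against 2.37, 1.93 and 1.86 and did not pass (−0.041, edgeR adjusted p = 0.933). Among 18 NF-κB genes the rises were 22.2% and the falls 27.8%, against 11.5% and 9.66% of all genes. Of these 18 genes 4 rose and 5 fell, among them the inhibitors NFKBIZ (0.73, SE 0.11), which rose, and NFKBIE (−0.65, SE 0.12) and TNFAIP3 (−0.61, SE 0.15), which fell. Without the libraries that carried MYH7 2 of these rose and 0 fell. There were 2 rises without the third untreated, the second primed or the third primed library, and 3 falls without the first untreated or the third primed one. The call ended with 1 library left out for ULBP1 (without the third primed, edgeR adjusted p = 0.0535). When the libraries that carried MYH7 were left out it was lost for MX1 (0.67, edgeR adjusted p = 0.0526), TNFSF10 (0.79, edgeR adjusted p = 0.126), ULBP1 (0.35, edgeR adjusted p = 0.137), NFKBIE (−0.41, edgeR adjusted p = 0.114) and TNFAIP3 (−0.54, edgeR adjusted p = 0.0839).

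Protein folding, amino acid supply and degradation genes gave mixed counts. Of 21 unfolded protein genes 8 rose and 2 fell, with 3 rises left without the libraries that carried MYH7 and 1 fall without the first untreated, the third untreated or the third primed library. With all libraries the unfolded protein shares were 38.1% higher and 9.52% lower, against 11.5% and 9.66% of all genes. The degradation component HERPUD1 (0.38, SE 0.048), the stress sensor ERN1 (0.46, SE 0.078) and the chaperone HSP90B1 (0.27, SE 0.05) rose and CRELD2 fell (−0.63, SE 0.075). Of 27 ATF4 genes 5 rose and 6 fell, with 3 rises without the libraries that carried MYH7, without the second untreated, or without the second or the third primed library. With all libraries the ATF4 shares were 18.5% higher and 22.2% lower, against 11.5% and 9.66% of all genes. The amino acid transporter SLC7A5 was at 736, 681 and 709 CPM against 449, 496 and 464 (log2 −0.59, SE 0.053, edgeR adjusted p = 4.24e-10), its partner SLC3A2 fell (−0.30, SE 0.064), and the glutamine transporter SLC1A5 rose (0.28, SE 0.052). Of 29 autophagy and lysosome genes 8 rose and 5 fell, with 2 falls without the second primed library and 3 without the first untreated library, the third primed library or the libraries that carried MYH7. With all libraries the autophagy and lysosome shares were 27.6% higher and 17.2% lower, against 11.5% and 9.66% of all genes. ATG2A (0.48, SE 0.065), GABARAPL1 (0.37, SE 0.055) and ATG9B (0.94, SE 0.14), which act in building the autophagosome, rose, and the cargo receptor SQSTM1 fell (−0.26, SE 0.054). Of 20 heat shock genes 5 fell (25% against 9.66% of all genes) and 0 rose. The falls were led by HSPA8 (−0.36, SE 0.058), and 2 genes of the list fell without the second primed library. Metallothionein MT2A, whose reads can be shared with its close relatives, rose (0.67, SE 0.10), and MT1X did not pass (0.074, edgeR adjusted p = 0.715). Leaving out the libraries that carried MYH7 ended the call of SLC3A2 (−0.25, edgeR adjusted p = 0.0754) and SQSTM1 (−0.20, edgeR adjusted p = 0.0819).

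Other signalling lists held fewer or less stable calls. Of 21 YAP/TAZ and actin genes 8 rose (38.1% against 11.5% of all genes) and 2 fell (9.52% against 9.66%). There was 1 fall without the libraries that carried MYH7 and without the first or the third untreated library. Rises numbered 3 without the libraries that carried MYH7 and 5 without the second untreated, the second primed or the third primed library. The transmembrane protein CRIM1 (0.70, SE 0.071) and the YAP partner TEAD1 (0.37, SE 0.06) were among the rises. Of 15 receptor tyrosine kinases 4 rose and 1 fell, with 2 rises and 0 falls without the libraries that carried MYH7. With all libraries the receptor shares were 26.7% higher and 6.67% lower, against 11.5% and 9.66% of all genes. The collagen receptor DDR1 was at 131, 129 and 125 CPM against 143, 178 and 154 (log2 0.31, SE 0.059, edgeR adjusted p = 0.000241) and the receptor MST1R at 48.3, 46.8 and 41.7 against 55.5, 62.1 and 54.1 (log2 0.33, SE 0.067, edgeR adjusted p = 0.000482).

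**Figure D5:**
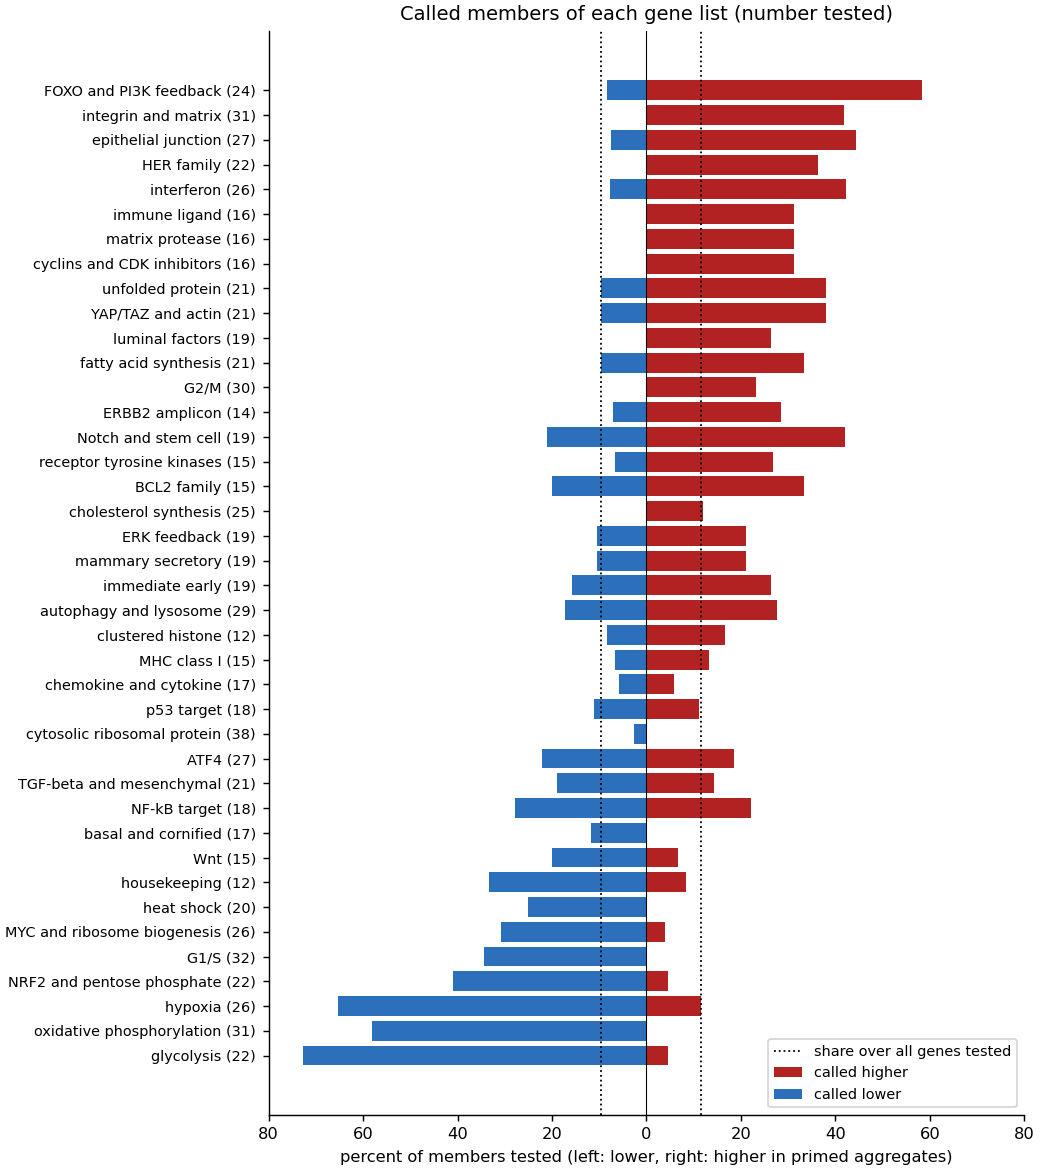
Share of the tested members of each gene list drawn that were called higher (red, to the right) or lower (blue, to the left) in primed aggregates, in percent, with the number tested after each name and dotted lines at the shares over all genes (11.5% higher, 9.66% lower). The short metallothionein (7 tested) and simple keratin (8 tested) lists are not drawn. Glycolysis, oxidative phosphorylation and hypoxia reach furthest to the left, and the FOXO and PI3K feedback list reaches furthest to the right at 58.3%.

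Among genes outside the lists, the largest falls with a clear level joined those above. STAC2, which belongs to a family of calcium channel regulators, was at 18.1, 20.7 and 22.1 CPM in untreated and 9.41, 4.52 and 5.54 in primed aggregates (log2 −1.66, SE 0.15, edgeR adjusted p = 1.14e-09). FAM43A was at 30.6, 29.3 and 27.1 CPM against 11.3, 10.5 and 10.4 (log2 −1.44, SE 0.13, edgeR adjusted p = 4.74e-10). The secreted glycoprotein STC1, a hormone induced by low oxygen in many cells, was at 31.3, 39.1 and 46.0 CPM against 18.1, 11.8 and 13.4 (log2 −1.43, SE 0.17, edgeR adjusted p = 3.34e-06). In all of these the groups were far apart. Others among the 15 largest falls were the vasoconstrictor EDN2 (−1.41, SE 0.23), the DDIT4 relative DDIT4L (−1.49, SE 0.26) and the amino acid transporter SLC36A2 (−1.74, SE 0.29), all under 10 CPM, and LRTM2, at 2.47, 2.55 and 2.56 against 0.651, 0.772 and 0.764 (log2 −1.78, SE 0.26, edgeR adjusted p = 4.57e-06). The muscle intermediate filament DES, at 2.00, 1.69 and 0.654 CPM against 0.118, 0.331 and 0.191, had the largest fall among the 15 (log2 −2.73, SE 0.86, edgeR adjusted p = 0.0305). Genes of at least 10 CPM in 1 group, looked at after the values were seen, added the lipid droplet protein PLIN2, at 13.5, 17.6 and 15.8 CPM against 6.04, 6.67 and 6.35 (log2 −1.30, SE 0.13, edgeR adjusted p = 9.21e-09), and ADSS1, an enzyme of the purine nucleotide cycle, at 48.8, 51.8 and 45.8 against 22.7, 19.0 and 20.9 (log2 −1.23, SE 0.091, edgeR adjusted p = 8.55e-12). In absolute level the largest falls were ALDOA, GAPDH, KRT19, KRT81, NDRG1 and PGK1, and the largest rises after COX1 were ERBB2, the giant scaffold protein AHNAK, at 1908, 2019 and 2026 CPM against 2956, 3077 and 2836 (log2 0.57, SE 0.054, edgeR adjusted p = 1.41e-09), GRB7, the amyloid precursor APP (0.39, SE 0.042) and the elongation factor EEF2 (0.26, SE 0.057). Leaving out 1 library ended the call of DES (without the first or the second untreated or the first or the second or the third primed, edgeR adjusted p between 0.0602 and 0.103). The libraries that carried MYH7, left out together, ended the call of DES (−1.58, edgeR adjusted p = 0.205) and EEF2 (0.19, edgeR adjusted p = 0.112).

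The largest rises were mostly genes that, like the melanocyte marker TYRP1, had far lower means in some libraries outside this comparison than in others. TYRP1 itself was at 5.70, 5.97 and 8.21 CPM in untreated and 18.6, 20.9 and 32.1 in primed aggregates (log2 1.86, SE 0.39, edgeR adjusted p = 0.00348), and PMEL, a pigment granule protein, at 6.05, 9.04 and 6.0 against 20.4, 27.7 and 38.6 (log2 2.04, SE 0.37, edgeR adjusted p = 0.00112). A gene was counted as sharing this pattern where its mean over 9 libraries (the 6 of aggregates with a later dose and the 3 primed monolayers) was under 0.2 of its mean over the 6 untreated and acute monolayers, a rule made after the values were seen. It held for 225 of 15969 genes (1.41%), for 55 of the 176 rises over 1 (31.2%) and for 13 of the 15 largest rises. These included ADAM23, at 0.235, 0.0511 and 0.297 CPM against 6.27, 4.02 and 8.54 (log2 5.03, SE 0.78, edgeR adjusted p = 0.000256), the serotonin receptor HTR2B (3.58, SE 0.61), the membrane protease MMP14 (3.01, SE 0.49), the pigment cell transporter SLC45A2 (2.90, SE 0.69) and the gelatinase MMP2 (2.80, SE 0.57). CRTAC1 was at 0.0588, 0 and 0 CPM against 0.947, 1.87 and 2.86, or 110 counts in all against 1, a ratio of 105 with a 95% counting interval of 18.5 to 4182. ISM1 had 68 counts against 3, a ratio of 21.6 with an interval of 7.09 to 108. The 2 of the 15 outside the pattern were the interferon gene IFI27, at 0.294, 0.408 and 0.238 CPM against 2.37, 3.47 and 3.63 (log2 3.29, SE 0.93, edgeR adjusted p = 0.0207), and the myelin gene MBP (2.71, SE 0.53). The part of other cells' RNA in these rises was not tested. Calls that ended without 1 library were those of IFI27 (without the first or the second or the third untreated or the second or the third primed, edgeR adjusted p between 0.051 and 0.0662).

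Acute exposure of monolayers, which shares no library with the aggregates, gave a response that overlapped in part. There 3222 genes were called (20.2%), 1799 higher (11.3%) and 1423 lower (8.91%) than in untreated monolayers. With the libraries that carried MYH7 left out, only the third untreated and the first acute monolayer library remain. No count is given for that fit, since it has 1 library on each side. The overlaps given next use all libraries. The genes higher in both numbered 612, which is 33.3% of the rises in primed aggregates and 34.0% of the acute ones, and 315 were lower in both (20.4% and 22.1%). Opposite calls were 174 genes lower in primed aggregates and higher after acute exposure (11.3% and 9.67%), and 88 higher in primed aggregates and lower after acute exposure (4.79% and 6.18%). Over all genes 11.3% rose and 8.91% fell after acute exposure, and 11.5% rose and 9.66% fell in primed aggregates. The shares of the 174 were thus near those over all genes, and the shares of the 88 were below them. HER2 pathway genes moved in both. ERBB2 was at 0.36 and ERBB3 at 0.51 in log2 fold change after acute exposure, and neither difference from the primed aggregate response passed. INSR rose more after acute exposure, by 1.95 against 0.84 (difference −1.11, edgeR adjusted p = 3.15e-08), as did SPRY4, by 2.27 against 0.73 (difference −1.54, edgeR adjusted p = 1.82e-13), and the ERK target ETV4 (1.82 against 0.41, edgeR adjusted p = 1.14e-09). Of 19 ERK feedback genes 11 rose and 0 fell after acute exposure, and 9 of the 19 differed between the responses.

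Hypoxia and glycolysis genes separated the 2 responses. After acute exposure 9 of 26 hypoxia genes rose and 2 fell, and 4 of 22 glycolysis genes rose and 3 fell. The difference between the responses passed for 14 hypoxia and 16 glycolysis genes, against 15.1% of all genes (6.85% with a more positive and 8.25% with a more negative change in primed aggregates). EGLN3 was 0.38 after acute exposure and −0.93 in primed aggregates (difference −1.30, edgeR adjusted p = 9.58e-10), VEGFA was 0.51 and −0.32 (difference −0.83, edgeR adjusted p = 2e-07), and ADM 0.18 and −1.66 (difference −1.84, edgeR adjusted p = 1.4e-06). PGK1 was −0.12 and −0.60 (difference −0.48, edgeR adjusted p = 4.47e-05). CITED2 rose by 0.46 after acute exposure where it fell in primed aggregates (difference −1.43, edgeR adjusted p = 3.93e-12). G2/M genes also parted, since 21 of 30 fell after acute exposure and 0 rose, and 19 differed between the responses. TXNIP was 0.53 after acute exposure and 1.78 in primed aggregates (difference 1.25, edgeR adjusted p = 0.00666). With all libraries 2411 genes differed between the responses. Of the libraries that carried MYH7, 4 are monolayers, and without them the untreated and acute monolayers keep 1 library each. No count is given for a fit without them.

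The same priming was also measured in aggregates that all received 50 µg/ml trastuzumab for a further 24 h after the 96 h of overlay culture, again with no library in common. These aggregates were thus kept 24 h longer, and the later dose and the longer culture cannot be told apart. Transcripts of other tissues differed between these libraries and those of the main comparison. The kidney marker UMOD was at 0.825 to 22.8 CPM here, against no more than 0.0588. The brain marker SNAP25 was at 11.85 to 17.3 against no more than 0.220, and TYRP1 at no more than 0.256 against 5.70 to 32.1. The part of this in the differences between the settings was not tested. In that setting 1274 genes were called (7.98%), 508 higher (3.18%) and 766 lower (4.8%) in primed than in unprimed aggregates. Of these rises 147 were also rises in primed aggregates without the later dose (28.9% of the 508 and 8.01% of the 1836), and 159 falls were shared (20.8% and 10.3%). Opposite calls were 119 genes higher without the later dose and lower with it (15.5% of the 766 and 6.48% of the 1836). Another 68 were lower without it and higher with it (13.4% of the 508 and 4.41% of the 1543). These shares were not far above those over all genes. Without the later dose 11.5% of all genes rose and 9.66% fell, and with it 3.18% rose and 4.8% fell. The number called was 780 without the first treated library, 820 without the first and 695 without the second library both primed and treated, and 2050 when fitted on these groups alone. The difference between the settings passed for 1992 genes (12.5%), with a more positive change without the later dose for 7.42% of all genes and a more negative one for 5.05%. Of 26 hypoxia genes 5 were higher and 1 lower under the later dose, and 20 differed between the settings. ADM was 0.089 under the later dose and −1.66 without it (difference −1.75, edgeR adjusted p = 1.55e-06), and PGK1 was 0.29 and −0.60 (difference −0.89, edgeR adjusted p = 8.19e-10). ERBB2 was −0.13 and 0.42 (difference 0.55, edgeR adjusted p = 2.7e-06), ERBB3 0.043 and 0.66 (difference 0.62, edgeR adjusted p = 1.65e-07) and IGF1R −0.042 and 0.66 (difference 0.71, edgeR adjusted p = 1.28e-07). These receptor transcripts rose without the later dose and did not pass with it. The unprimed control under the later dose had itself received the antibody. ERBB2 was at 8832 to 9091 CPM in that control and 7842 to 8407 in primed and treated aggregates. Without the later dose it was at 5767 to 6620 in untreated and 8054 to 8590 in primed aggregates. ADM averaged 10.5 and 11.2 CPM with the later dose, against 76.3 and 24.0 without it. The part of these control levels in the differences was not tested. The PI3K feedback list still had 10 of 24 rises and 1 fall under the later dose. Among the rises were TXNIP (0.66), FOXO3 (0.47) and PDCD4 (0.17). Of 30 G2/M genes 28 fell and 0 rose there, and 27 differed between the settings, with CENPF at −0.71 against 0.62 (difference 1.33, edgeR adjusted p = 6.43e-06).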

How the data were processed

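RNA-seq counts of 21 AU565 libraries in 7 groups of 3 were used, and the 6 aggregate libraries without a later dose make up the main comparison. The authors deposited whole-number read counts per gene in 1 table with Entrez identifiers and symbols, made with featureCounts on hg38 per the submitters' processing notes, which also name limma and give no versions. RNA was extracted with TRIzol and libraries were made with a TruSeq kit, per the labels. Strand use in counting and any filter behind the table are not given in the sources used here, and the lowest maximum in the deposited table was 0.501 CPM. The column of the primed aggregates was matched to its samples by the treatment named in their labels.

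From these counts, genes with low counts were removed with filterByExpr (584 genes with 0.0116% of counts, 15969 left), TMM factors were computed, and edgeR's quasi-likelihood model (robust) was fitted over all 7 groups with 14 residual degrees of freedom. The biological coefficient of variation was 5.98%. P-values were adjusted by Benjamini-Hochberg over all 15969 genes, and genes with an adjusted p under 0.05 were called. Differences between responses were interaction terms in the same model. R 4.3.3, edgeR 4.0.16, limma 3.58.1 and DESeq2 1.42.0 were used. On simulated counts for primed against untreated aggregates with 15781 genes, 74% of 100 genes changed 1.5-fold and 96% of 100 genes changed 2-fold were recovered, and 5.56% of calls were false. The changed genes were drawn from those averaging at least 1 CPM, so recovery below that level was not measured. Counts were drawn independently for each gene, so shifts that many genes share in a library were not simulated. No pair of replicates had identical counts.

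The comparison, the 42 gene lists (840 of 914 genes tested) and the tests were chosen with earlier results of these data known. Genes were named by rule: the largest fold changes among called genes of at least 1 CPM, the largest changes in CPM, the members of each list with the smallest p, a set of genes of HER2 signalling and drug response, and the largest differences between responses. Other named genes, the list members beyond those with the smallest p among them, and the genes of at least 10 CPM were chosen after their values were seen. Positions and promoters are from RefSeq on GRCh38.p14, where 16373 of 16553 identifiers were found. The alternatives were DESeq2, limma voom, RLE size factors, no filter, only the groups compared, replicate number as a block, each library left out, the 6 libraries with MYH7 over 1 CPM left out, and genes averaging 10 CPM or more.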

Additional observations from a re-analysis of the deposited data

Results flagged for a closer look

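The effect of priming was measured without and with a later dose of 50 µg/ml trastuzumab to the aggregates, and the effects were compared by an interaction term in edgeR's quasi-likelihood model. Aggregates with the later dose, their unprimed control among them, were also kept 24 h longer, and dose and culture time cannot be told apart. They differed for 1992 of 15969 genes (12.5%) at an adjusted p under 0.05. Transcripts of other tissues, such as UMOD, SNAP25 and TYRP1, also differed between the libraries with and without the later dose, as given above. For named genes whose difference passed, the log2 fold change in aggregates without the later dose minus that in aggregates with it is given here. A positive value means that priming was followed by a higher level, relative to its own control, when no later dose was given.

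Among hypoxia genes, the value was positive for EPAS1 (0.34) and HIF1A (0.25) and negative for ADM (−1.75), PPFIA4 (−1.40), DDIT4 (−1.12), ANKRD37 (−0.97), PFKFB4 (−0.91), EGLN3 (−0.88), HILPDA (−0.75), EGLN1 (−0.67), BNIP3 (−0.66), P4HA1 (−0.63), NDRG1 (−0.52), VEGFA (−0.46), P4HA2 (−0.37), PLOD2 (−0.34), BNIP3L (−0.34) and KDM3A (−0.33). Among glycolysis genes, it was negative for PDK1 (−0.90), PGK1 (−0.89), ALDOC (−0.64), TPI1 (−0.60), PFKP (−0.60), GPI (−0.57), ENO1 (−0.50), LDHA (−0.48), ALDOA (−0.47), HK2 (−0.44), PGAM1 (−0.36) and PKM (−0.28). Among genes of the HER family, its amplicon and other receptor tyrosine kinases, the value was positive for ERBB3 (0.62), GRB7 (0.62), MST1R (0.58), GAB1 (0.55), ERBB2 (0.55), LRIG1 (0.36) and DDR1 (0.35) and negative for MIEN1 (−0.41). Among genes held down by PI3K and genes of the BCL2 family, the value was positive for TXNIP (1.12), BMF (0.82), IGF1R (0.71), INSR (0.63), PIK3IP1 (0.47), PDCD4 (0.29), KLHL24 (0.28), BCL2L1 (0.28), RICTOR (0.26) and MCL1 (0.23) and negative for CITED2 (−0.66) and BID (−0.43). Among genes induced by ERK, the value was positive for DUSP6 (1.05), SPRY4 (1.01), SPRED2 (0.57), KLF4 (0.50) and ETV4 (0.44) and negative for FOS (−1.09), DUSP5 (−0.60), ATF3 (−0.55) and MYC (−0.36). Among cell cycle genes, the value was positive for CENPF (1.33), HMMR (1.23), KIF20A (1.22), CENPE (1.12), MKI67 (1.09), CCND3 (0.46), RBL2 (0.33) and CCND1 (0.23) and negative for MCM3 (−0.40). Among respiratory, NRF2, MYC, ribosome, ATF4 and heat shock genes, the value was positive for SLC7A11 (0.55) and negative for SLC7A5 (−0.57), SLC3A2 (−0.57), HSPA8 (−0.51), RPS12 (−0.45), GCLM (−0.44), SRXN1 (−0.43), PGD (−0.39), NQO1 (−0.37) and NDUFB8 (−0.30). Among matrix, junction and protease genes, the value was positive for MMP14 (3.38), ITGB4 (1.03), CRIM1 (0.72), ITGB5 (0.64), LAMB1 (0.58), LAMB2 (0.49), TEAD1 (0.48), CTNND1 (0.43) and DSC2 (0.40) and negative for PKP3 (−0.39). Among keratin, secretory, luminal and Notch genes, the value was positive for DLL4 (1.66), SCGB2A2 (0.85), NOTCH2 (0.67), EHF (0.65), PIP (0.61), AZGP1 (0.43), ZNF217 (0.40) and NOTCH3 (0.39) and negative for KRT17 (−2.17), KRT15 (−0.86), JAG1 (−0.62) and KRT19 (−0.30). Among interferon, immune ligand and NF-κB genes, the value was positive for NFKBIZ (0.83), OAS1 (0.67), NECTIN4 (0.39), STAT2 (0.29) and CD55 (0.28) and negative for USP18 (−0.67) and NFKBIE (−0.59). Among protein folding, autophagy and metallothionein genes, the value was positive for ATG9B (1.28), MT2A (0.89), ATG2A (0.51), HSP90B1 (0.47), ERN1 (0.35), HERPUD1 (0.31) and GABARAPL1 (0.22) and negative for SQSTM1 (−0.27). Among the other genes named, the value was positive for CRTAC1 (6.62), ISM1 (4.55), SPARC (3.49), MBP (2.99), SYT1 (0.67), AHNAK (0.47), APP (0.40), EEF2 (0.25) and COX1 (0.24) and negative for STAC2 (−2.64), FAM43A (−2.11), LRTM2 (−2.08), DDIT4L (−1.82), CDH5 (−1.72), SLC36A2 (−1.64), STC1 (−1.58), ADSS1 (−1.39), PLIN2 (−1.33), EDN2 (−1.27) and MB (−0.69). The fitted values of CRTAC1 and ISM1 rest on libraries at or near 0 counts and are no bounds. MMP14, SPARC, CRTAC1, ISM1 and LRTM2 share the library pattern of TYRP1 described above. With the later dose SPARC averaged 1.72 CPM in unprimed and 0.596 in primed aggregates. SPARC, MBP, SYT1, CDH5 and MB are among the markers of other tissues given above. The part of other cells' RNA in these values was not tested.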

How the results depend on the processing

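Of the 5 counts of called genes, those that moved by over 1.5 times did so under 2 kinds of setting besides single libraries. Fitted on the groups compared alone, primed against untreated aggregates gave 2177 genes, and primed and treated against treated aggregates gave 2050. Without the 6 libraries that carried MYH7, primed against untreated aggregates gave 2176, acute against untreated monolayers 727 (525 higher and 202 lower), and the difference between those responses 268; fewer samples entered these fits. With 1 library left out, the counts lay between 2457 and 3378 for primed against untreated aggregates, 2359 and 3048 for acute monolayers, 695 and 1138 for primed and treated aggregates, 1750 and 2672 for the difference from acute monolayers, and 1502 and 2176 for the difference from priming with a later dose. No gene called in both fits changed direction. Among named genes, the sign of values that had not passed turned when 1 library was left out. The range over the 6 libraries left out in turn was −0.29 to 0.13 for BTC, −0.0099 to 0.044 for CCND1, −0.16 to 0.13 for CD274, −0.054 to 0.11 for EGFR, −0.053 to 0.17 for GATA3, −0.14 to 0.16 for HBEGF, −0.0058 to 0.051 for KRT18 and −0.073 to 0.19 for MT1X. Without the libraries that carried MYH7, the values were −0.054 for CCND1, 0.19 for CD274, −0.19 for GATA3 and −0.042 for KRT18, and the cause was not tested. Calls gained were those of MKI67 and MYH7 with DESeq2 (adjusted p = 0.0292 and 3.19e-08), and, with edgeR, of MKI67 and CDH1 without the first primed library (adjusted p = 0.00514 and 0.0143) and of EPCAM without the third primed library (adjusted p = 0.0289). Fitted on the groups compared alone, 15 named genes lost their call (edgeR adjusted p between 0.0516 and 0.144). They were BID, BNIP3L, CCNG2, CDK12, CENPE, EGF, HEY1, HK1, KDM3A, KRT81, MUCL1, SCGB2A2, SESN3, SYT1 and VIM. Calls lost with limma voom were those of DES, IFI27 and SESN3 (adjusted p = 0.184, 0.0516 and 0.0577). HEY1 lost its call with DESeq2 (adjusted p = 0.0524) and with the replicate block, and MUCL1 without the filter.

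Deviations of same-numbered libraries correlated at −0.0942, −0.0285 and −0.0844 in primed against untreated aggregates, at −0.186, 0.311 and −0.314 in acute monolayers, and at −0.0778, 0.102 and 0.283 in primed and treated aggregates, so in none of these did every pair exceed 0.1 and the numbers were not taken to pair the samples. With replicate number as a block, 3288 genes were called in primed against untreated aggregates, 3157 in acute monolayers, 1228 in primed and treated aggregates, and 2339 and 1909 for the differences from these.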
